A study of Rattus norvegicus with 4 samples.

Results

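The ubiquitin-specific proteases are a gene family, and its members were taken here as every gene whose symbol is Usp, a number and at most 1 further letter and that a probe set names alone. On the arrays 80 probe sets met that rule, for 42 genes out of 14217 genes named in the same way, and each gene was represented by its brightest probe set. Of the 42 genes, 39 lay above the level at which probe sets were tested, an intensity of about 544, and only these were tested for a change. The samples were total RNA of rat adrenal medulla on 4 single-colour arrays. On 2 arrays the rats were unstressed, and on 2 they had been immobilized for 2 h. Strain, sex and age of the rats, any pooling, and the delay between immobilization and tissue collection are not given in the labels. The p-values therefore measure the spread between these arrays, which may be technical.

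Ubiquitin is a small protein that is attached in chains or singly to other proteins, where it marks them for the proteasome or changes their place and activity. Ubiquitin-specific proteases cut it off again with a catalytic cysteine, and they form the largest family of deubiquitinases. Each member has its own substrates, among them p53 and its ligase, clock proteins, histones, cell surface receptors and proteins of the outer mitochondrial membrane. A few relatives have lost the catalytic residues, and 1 member removes the ubiquitin-like protein Isg15 in place of ubiquitin.

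The median intensity of all probe sets was 827 to 955 on the 4 arrays. Of the chromaffin cell enzymes, Th had a log2 change of 0.01 ± 0.22, Dbh 0.09 ± 0.20 and Pnmt 0.36 ± 0.18, none past the threshold. Here and below ± gives the SE of the fit, with n = 2 per group. These genes lay at the 99.7th to 99.9th percentile of level, and whether readings that bright can show a change was not tested. The immobilized arrays also differed, with Th at 68379 on immobilized 1 and 44651 on immobilized 2, and Dbh at 67779 and 48705. No lack of change is read from these values. The 5 stress response genes checked, among them Fos (4.97), Egr1 (2.99) and Nr4a1 (3.13), all rose, by 2.99 to 4.97 on the log2 scale. This list was chosen with earlier results of these data known, so its rises add no independent support. Fos averaged 433 without stress, under the tested level, and passed that level through its immobilized values of 12288 and 14407. Chromaffin cell markers were present, with all 7 of 8 listed markers that the arrays carry tested and summed intensities of 271301 to 294563 on the unstressed and 254343 to 362609 on the immobilized arrays. Markers of the adrenal cortex read high as well, with 7 of 9 listed markers summing to 327714 and 367682 without stress and 256574 and 351292 after immobilization. The RNA thus held cortex as well as medulla, and no change below can be assigned to a cell type. Of the markers of other cells, S100b, a marker of Schwann and sustentacular cells, fell by 0.59 and Kdr, a receptor of endothelial cells, by 0.79, while the cortex gene Nr5a1 rose by 0.47 (limma adjusted p = 0.0168, 0.0238 and 0.0437). The 3 of 6 listed Schwann and sustentacular markers on the arrays summed to 7494 and 6335 without stress and 5071 and 4590.5 after immobilization, and 4 of 5 endothelial markers to 30525 and 39686 against 24949 and 27076. S100b made up most of the Schwann and sustentacular sums, with 6187 and 5598 without stress and 4014 and 3812 after immobilization. Sox10 of that list had -0.14 ± 0.32 with overlapping groups and did not pass. Fabp7 lay under the tested level, with an untested difference of 0.10. Within both the endothelial and the cortex lists the markers differed in direction. Beside Kdr, Tek had a log2 change of -0.33, Pecam1 0.54 and Vwf 0.36, none past the threshold, and the median of the 4 was 0.017. Beside Nr5a1, the other 6 cortex markers had -0.64 (Cyp11b1) to 0.07 (Star), none past the threshold, and the median of the 7 was -0.27. All 5 macrophage markers and both red blood cell markers tested had an adjusted p above the threshold, and all 4 fat cell markers lay below the tested level. The part of these differences in the Usp values was not tested. In such bulk RNA, fewer cells of a type and less RNA per cell cannot be told apart.

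Within the family 8 genes rose and 10 fell after immobilization, and 21 did not pass the test (limma, Benjamini-Hochberg adjusted p under 0.05 over all tested probe sets). The rises were led by Usp38, Usp2 and Usp24, and the falls by Usp30, Usp21 and Usp18. Of all 10320 tested genes 11.2% were called higher and 21.8% lower, against 20.5% and 25.6% of the Usp genes. These shares are given as a description, and nothing particular to the family is read from them. After each array was centred on its median, 10 Usp genes were called higher and 8 lower. The median log2 change over the 39 genes was -0.09 with the deposited scaling and 0.045 after that centring, beside -0.14 over all tested genes with the deposited scaling. The median size of change, sign aside, was 0.41 for Usp genes and 0.37 for all tested genes. Changes of at least 2-fold among the called genes numbered 5 upward and 3 downward. The share of all tested genes with such changes was not counted, nor were all-gene shares for the counts under changed settings. Nothing particular to the family is read from those counts. The 2 arrays of 1 group did not overlap with those of the other at 30 of the 39 genes, or 76.9%, where 69.7% of all tested genes had groups that did not overlap. The 39 genes differed by a median of 0.13 (log2, sign aside) within the unstressed pair and 0.16 within the immobilized pair, and by 0.40 to 0.49 when an array of each group was paired. Without immobilized 1 the counts were 5 rises and 3 falls, and without immobilized 2 they were 2 and 3. In those fits the spread comes from the unstressed pair alone, and the lone array of the other group is assumed to vary like that pair.

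**Figure D1:**
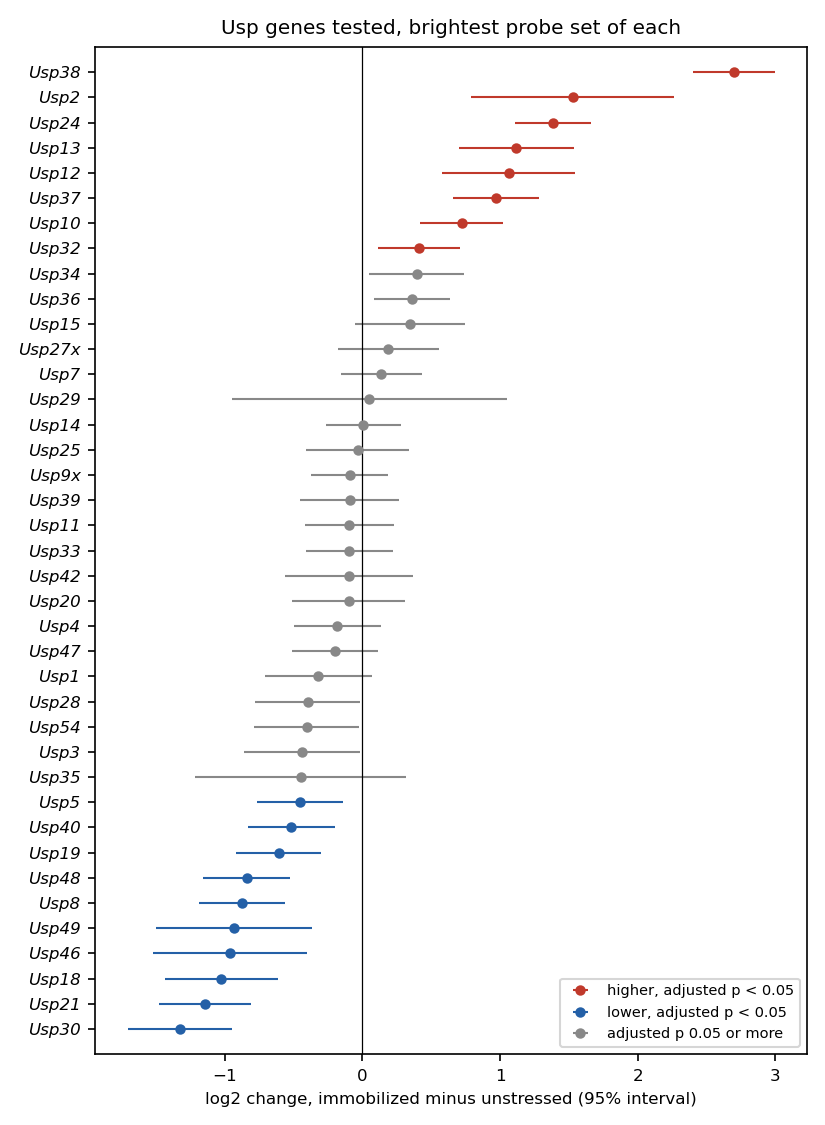
Log2 change (immobilized minus unstressed, x axis) of the 39 tested Usp genes (y axis), with the 95% interval of the moderated fit and 2 arrays per group. Red marks the 8 genes called higher, blue the 10 called lower and grey the 21 that did not pass, and Usp38 stands apart at 2.70.

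Usp38 had the largest change among the 39 tested genes. It encodes a protease known for restraining interferon signalling through the kinase Tbk1. Its intensities were 3003 and 3099.8 without stress and 18806 and 21102 after immobilization. Both immobilized values stood far above both unstressed ones, a log2 rise of 2.70 ± 0.12 or 6.5-fold (limma adjusted p = 6.02e-05). Among all 10320 tested genes it was the rise of rank 103. A second probe set of Usp38 read 1489.7 and 1276 against 12347 and 12760.4, a log2 rise of 3.17 ± 0.14. The call held under each of the 15 alternative settings, with an adjusted p of at most 0.0083. Usp37, which acts on cell cycle regulators and like Usp38 belongs to none of the role groups below, read 3793 and 3563 without stress and 6826 and 7651 after immobilization. It rose by 0.97 ± 0.13, or 1.96-fold (limma adjusted p = 0.00287), and lost the call without immobilized 2 (adjusted p = 0.0561).

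RefSeq promoter windows on the GRCr8 assembly, 250 bases before to 50 after the gene's start, were found for 33 of the 42 Usp genes. Only 1 window per gene was used, so any other start of a gene was not searched. Those of the tested genes with the largest rise and the largest fall are shown, because the genes moved in opposite directions and their windows differ in the motifs searched. Capitals mark matches to the motifs searched on both strands. These were TGACGTCA (the full cyclic AMP response element), TGACG (its core, which the full element contains) and TGANTCA (a loose form of the AP-1 element, with any middle base). The others were CACGTG (the E-box) and GCGTGGGCG (the Egr element).
Usp38 promoter, GRCr8, chr19:43910224-43910523, plus strand: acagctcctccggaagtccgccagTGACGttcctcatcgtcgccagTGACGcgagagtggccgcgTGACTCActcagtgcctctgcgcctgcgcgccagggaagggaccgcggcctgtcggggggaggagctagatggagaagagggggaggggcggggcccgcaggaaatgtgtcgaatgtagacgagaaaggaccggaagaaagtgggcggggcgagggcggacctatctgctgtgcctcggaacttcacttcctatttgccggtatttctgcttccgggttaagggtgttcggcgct
Usp30 promoter, GRCr8, chr12:48185548-48185847, minus strand: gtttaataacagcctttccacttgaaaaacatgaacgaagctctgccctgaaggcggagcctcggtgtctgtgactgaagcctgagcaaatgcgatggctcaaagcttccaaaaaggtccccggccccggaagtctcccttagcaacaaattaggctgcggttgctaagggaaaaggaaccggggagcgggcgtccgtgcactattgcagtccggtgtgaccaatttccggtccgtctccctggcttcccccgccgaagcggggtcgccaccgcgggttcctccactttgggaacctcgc
The Usp38 window held 2 TGACG matches, 226 and 204 bases before the start, and 1 TGANTCA match at 185 bases. The Usp30 window held no match to any of the 5 motifs. This pair does not stand for its groups. The windows of Usp2, Usp37 and Usp10, which rose, held no match either, and that of Usp8, which fell, held 2 TGACG matches. TGACG was present in 3 of the 6 windows of genes that rose, in 2 of the 8 of genes that fell, in 7 of the 18 of tested genes that did not pass, and in 22% of all 27457 windows. TGANTCA was in 1 of 6, 1 of 8 and 0 of 18, against 7.33% of all windows. The match of Usp38, which rose, read TGACTCA, and that of Usp5, which fell, read TGAATCA. The shares count any middle base. TGACGTCA occurred in 0 of the 33 Usp windows and in 1.91% of all windows. CACGTG was found in 1 of the 6 windows of genes that rose, that of Usp32, in 0 of the 8 of genes that fell and in 1 of the 18 of genes that did not pass, that of Usp4, against 6.65% of all. With Usp31, which was not tested, 3 of the 33 Usp windows held it. GCGTGGGCG was in the windows of Usp4 and Usp28, neither of which passed the test, and in 0.59% of all. The numbers of windows are small, and a match is a description of letters, not a bound site.

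Usp2 and its relative Usp21 moved in opposite directions. Usp2, which acts on clock proteins, cyclin D1 and Mdm2, read 1332 and 691 without stress and 2834 and 2774 after immobilization. The unstressed arrays differed from each other by more than the immobilized arrays did, and still lay below both. It rose by 1.53 ± 0.31, or 2.89-fold (95% interval 0.79 to 2.27, limma adjusted p = 0.0117), and a second probe set rose by 1.17 ± 0.32. The call was lost without immobilized 1 or immobilized 2 (limma adjusted p = 0.0927 and 0.0972). Usp21, which removes ubiquitin from histone H2A among other proteins, read 5168 and 5033 without stress and 2395 and 2216 after immobilization. The arrays within each group were close to each other, and it fell by 1.14 ± 0.14, or 2.21-fold (limma adjusted p = 0.002). It passed under each alternative.

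**Figure D2:**
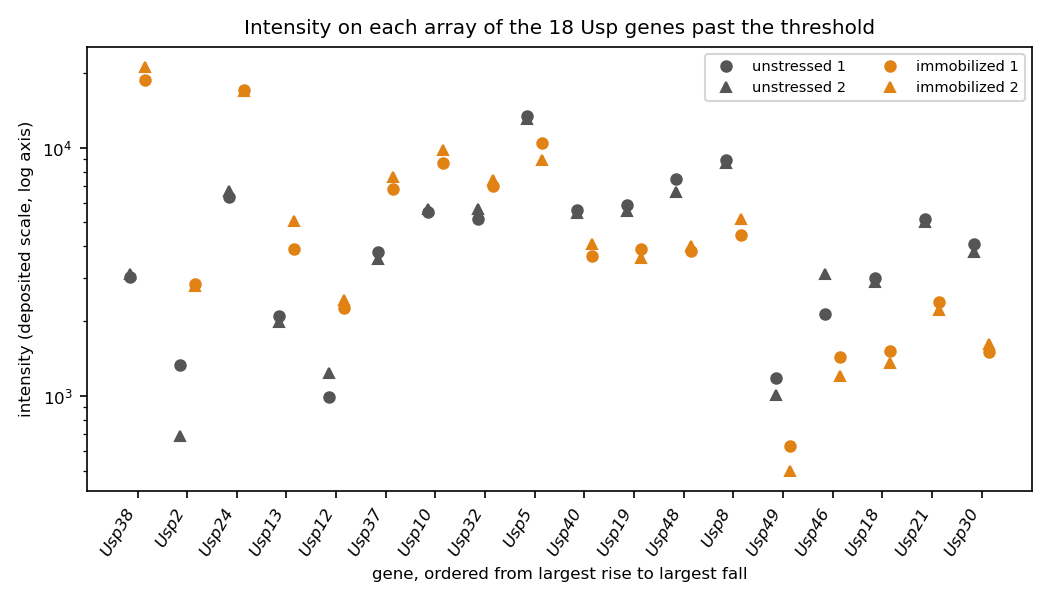
Intensity on each array (log axis) of the 18 Usp genes past the threshold, in order from the largest rise to the largest fall (x axis), with grey for unstressed and orange for immobilized arrays, circles for array 1 and triangles for array 2 of a group. The groups do not overlap at any of the 18 genes, which were picked by adjusted p on these same arrays, so this adds no support. Of all tested genes, 69.7% had groups that did not overlap. Usp38 goes from about 3051 to 19954 on average. Each gene has its own probes, so levels compare within a gene only.

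Of the 5 large scaffold-like proteases, 1 rose, 1 fell and 3 did not pass. Over all tested genes 11.2% were called higher and 21.8% lower. Nothing particular to this or any other role group is read from such counts. Usp24, linked to the response to DNA damage, read 6312 and 6662 without stress and 17081 and 16842 after immobilization. It rose by 1.38 ± 0.12, or 2.61-fold (limma adjusted p = 0.000501), and passed under each alternative. Its second probe set read 1846 and 3135 against 8872 and 10795, a rise of 2.02 ± 0.25. Usp40 read 5609.6 and 5453 without stress and 3659.5 and 4078 after immobilization and fell by 0.52 ± 0.13 (limma adjusted p = 0.0269). That call was lost without immobilized 1 or immobilized 2 (limma adjusted p = 0.181 and 0.112) and after median centring (0.104), and the mean of its probe sets turned upward (0.28, adjusted p = 0.437). Without an intensity trend the adjusted p in limma was 0.0544. The mean of the Usp40 probe sets took in dim ones under the tested level, with untested differences of 1.02 and 0.79. All 4 values of the one with 0.79 lay within the range of the Bacillus controls, which have no target in rat RNA. The other tested probe set of Usp40 had -0.18, so the upward mean is not read as a rise. Usp34, which acts in Wnt signalling, had 0.39 ± 0.14 (limma adjusted p = 0.0796), and passed without unstressed 1 (0.49, adjusted p = 0.044) and after median centring (0.53, adjusted p = 0.0363). Usp47, a protease of base excision repair, had -0.20 ± 0.13.

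Usp9x, an X-linked member with many substrates in trafficking and growth factor signalling, depended on the probe set. The brightest read 9903 and 10350.00 without stress and 9199.6 and 9830.2 after immobilization, a change of -0.09 ± 0.12 with a 95% interval of -0.37 to 0.19. The next brightest read 7573 and 7628 against 10246 and 10309, a rise of 0.43 ± 0.11 (limma adjusted p = 0.0289). The one after that read 5535 and 6643 against 9102 and 9311, a rise of 0.60 ± 0.14 (adjusted p = 0.0172). The last had 0.48 ± 0.21 and did not pass (adjusted p = 0.136). In all 3 of these the immobilized arrays stood above the unstressed ones, and at the brightest they stood below. The mean of the 4 probe sets had a change of 0.36 (limma adjusted p = 0.072).

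The close paralogues Usp12 and Usp46, which share the activating partners Wdr48 and Wdr20, also moved in opposite directions. For Usp12 the intensities were 994 and 1241 without stress and 2254 and 2425 after immobilization, a rise of 1.06 ± 0.20 or 2.09-fold (limma adjusted p = 0.00938). Usp46, which acts on glutamate receptors, read 2138 and 3095 without stress and 1436 and 1206 after immobilization, with the unstressed arrays further apart than the immobilized ones. It fell by 0.96 ± 0.23 or 1.94-fold (limma adjusted p = 0.0228). The 95% intervals were 0.58 to 1.54 for Usp12 and -1.52 to -0.40 for Usp46. Their opposite sides of 0 follow from the 2 calls and add no support. A second Usp46 probe set fell by 1.19 ± 0.26, and another had -0.55 ± 0.31 and did not pass. Without immobilized 1 the adjusted p was 0.0697 for Usp12 and 0.0891 for Usp46, and without immobilized 2 it was 0.092 and 0.154. The call on Usp46 was also lost without unstressed 2 (0.0529). The partner genes Wdr48 and Wdr20 had -0.30 ± 0.24 and -0.08 ± 0.17 and did not pass.

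Among proteases of free ubiquitin chains and of the proteasome, Usp13 rose and its paralogue Usp5 fell. Usp5, also called isopeptidase T, takes apart chains that are not attached to a protein. Its intensities were 13403 and 13032 without stress and 10466 and 8898 after immobilization. It fell by 0.45 ± 0.13 or 1.37-fold (limma adjusted p = 0.0389). That call was lost under more settings than any other in the family. Leaving out unstressed 1, unstressed 2, immobilized 1 or immobilized 2 gave an adjusted p of 0.065, 0.0508, 0.0731 and 0.205, and median centring gave 0.124. It was 0.0641 with no filter and 0.0875 with no intensity trend. Usp13 read 2095 and 1986 without stress and 3915 and 5050.01 after immobilization and rose by 1.12 ± 0.18, or 2.17-fold (limma adjusted p = 0.00476). Its call was lost without immobilized 2 (0.0667). A second probe set of Usp13 rose by 0.69 ± 0.16. Usp14, which trims chains on the proteasome, read 11369 and 10978 without stress and 11349 and 11112 after immobilization. These 4 values lay within a narrow band, and the change was 0.01 ± 0.11 with a 95% interval of -0.27 to 0.28.

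Of 6 nuclear and p53-linked proteases, 1 rose and 5 did not pass, beside 11.2% higher and 21.8% lower over all tested genes. Usp10, which binds the stress granule protein G3bp1 and deubiquitinates p53 in the cytoplasm, read 5491 and 5669 without stress and 8674 and 9783 after immobilization. It rose by 0.72 ± 0.13, or 1.65-fold (limma adjusted p = 0.00682), and lost the call without immobilized 2 (0.0864). Usp7, the protease of Mdm2 and p53, had 0.14 ± 0.12 with an interval of -0.16 to 0.44, and 2 other probe sets had 0.34 and 0.37. Usp28, which stabilises Myc, had -0.40 ± 0.16, and its paralogue Usp25 had -0.03 ± 0.16. Usp1, which acts on Pcna in DNA repair, had -0.32 ± 0.16. For Usp11 the brightest probe set had -0.09 ± 0.14. Its paralogues Usp4 and Usp15, both found with the spliceosome factor Sart3, had -0.18 ± 0.13 and 0.35 ± 0.17. None of the 3 passed.

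A role group of proteases of ubiquitinated histones H2A or H2B did not count Usp21, because it stands beside Usp2 above. Of the 5 tested members of the group, 1 fell and 4 did not pass. Among all tested genes 11.2% were called higher and 21.8% lower. Usp49 read 1176 and 1008 without stress and 632 and 499.7 after immobilization, close to the tested level. It fell by 0.93 ± 0.24, or 1.91-fold (limma adjusted p = 0.026). The call was lost without unstressed 1, immobilized 1 or immobilized 2 (limma adjusted p = 0.0585, 0.0829 and 0.168) and with no filter (0.0518), and its 4 other probe sets lay under the tested level. Usp3 had -0.44 ± 0.18 (limma adjusted p = 0.104) and passed without unstressed 1 (-0.57, adjusted p = 0.0394). Usp36, a nucleolar member, had 0.36 ± 0.12 (adjusted p = 0.0561), and it passed after median centring (0.50, adjusted p = 0.0236). Usp27x and Usp42 had 0.19 ± 0.15 and -0.09 ± 0.20.

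Both membrane-anchored members fell at their brightest probe set, where 21.8% of all tested genes were called lower and 11.2% higher. Usp30, which sits on the outer mitochondrial membrane and opposes the removal of damaged mitochondria, had intensities of 4091 and 3789 without stress and 1508 and 1617 after immobilization. Both immobilized values lay far below both unstressed ones. It fell by 1.33 ± 0.16, or 2.51-fold (limma adjusted p = 0.00185), and it passed under each alternative. A second probe set read 726 and 798 against 152 and 199, and lay under the tested level. Both of its immobilized values fall among the readings of the 27 Bacillus controls (2.18 to 257), which have no target in rat RNA. Usp19, which has a form anchored in the endoplasmic reticulum, gave opposite calls. The brightest probe set read 5860.1 and 5576 without stress and 3899 and 3597 after immobilization and fell by 0.61 ± 0.13 (limma adjusted p = 0.0144). The other read 2153 and 2320.2 against 3725 and 3513, a rise of 0.69 ± 0.15 (adjusted p = 0.0154). Their mean had a change of 0.041, so no direction is given for the gene, though its brightest probe set counts among the 10 falls. The call of the brightest probe set was lost without immobilized 1 or immobilized 2 (limma adjusted p = 0.0841 and 0.128).

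Of 4 proteases of endosomes and receptor recycling, 1 rose and 1 fell, against 11.2% higher and 21.8% lower over all tested genes. Usp8, which deubiquitinates receptors such as Egfr on endosomes, read 8889.95 and 8665 without stress and 4433 and 5167 after immobilization. It fell by 0.87 ± 0.13, or 1.83-fold (limma adjusted p = 0.00417), and missed the threshold without immobilized 1 (0.0516). A second tested probe set of Usp8 had 0.03 ± 0.29, and the mean of its probe sets did not pass (-1.01, limma adjusted p = 0.0851). That mean took in a further probe set under the tested level, which read 76.7 and 694 against 42.9 and 39.2. All of these values but the 694 of unstressed 2 lie within the Bacillus control range. Usp32, a Golgi protein, read 5162 and 5659.8 without stress and 6991 and 7398 after immobilization and rose by 0.41 ± 0.13, or 1.33-fold (limma adjusted p = 0.0466). Its call was lost without unstressed 1, immobilized 1 or immobilized 2 (0.0976, 0.169 and 0.248), with no filter (0.0712) and with no intensity trend (0.0963). Usp20 and Usp33, which recycle the beta-adrenergic receptor, had -0.10 ± 0.17 and -0.09 ± 0.13 with intervals of -0.51 to 0.31 and -0.41 to 0.22. Usp48, a nuclear protease that belongs to none of the role groups, read 7513 and 6600.4 without stress and 3847 and 4006 after immobilization. It fell by 0.84 ± 0.13, or 1.79-fold (limma adjusted p = 0.00487), while its second probe set had -0.01 ± 0.18 and their mean -0.43 (limma adjusted p = 0.0506). Without immobilized 1 or immobilized 2 its adjusted p was 0.0591 and 0.0586.

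Usp18 removes Isg15, a ubiquitin-like protein made in response to interferon, and dampens signalling at the interferon receptor. Its intensities were 2994 and 2874 without stress and 1514 and 1355 after immobilization, with no overlap between groups. It fell by 1.03 ± 0.17, or 2.04-fold (limma adjusted p = 0.00605), and lost the call without immobilized 2 (0.0671). Of 13 tested genes of the Isg15 pathway, 2 rose, 2 fell and 9 did not pass, with a median log2 change of -0.38. Over all tested genes the shares were 11.2% higher and 21.8% lower. Isg15 read 8674 and 13249 without stress and 26624 and 19056 after immobilization and rose by 1.07 ± 0.24, but not past the threshold without immobilized 1 or immobilized 2 (limma adjusted p = 0.119 and 0.0542). Ifit3, an interferon-induced gene, rose by 2.36 ± 0.29 (limma adjusted p = 0.00189). The receptor gene Ifnar1 and the transcription factor gene Irf9 fell by 0.74 and 0.48 (limma adjusted p = 0.0475 and 0.0493). Neither fall passed after quantile normalization (0.0778 and 0.122), without immobilized 1 (0.229 and 0.249) or without immobilized 2 (0.115 and 0.158), nor after median centring (0.086 and 0.173) or with no filter (0.0673 and 0.0638). Ifnar1 also missed it without unstressed 1 (0.121) and Irf9 without unstressed 2 (0.0977).

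The 2 tested members of a role group listed as catalytically inactive did not pass. Whether Usp54, 1 of the 2, lacks activity was not examined here. Usp39, a part of the spliceosome, had -0.09 ± 0.15, and Usp54 had -0.41 ± 0.16 (limma adjusted p = 0.101). Usp29 and Usp35 had 0.05 ± 0.42 and -0.45 ± 0.32, with wide intervals of -0.95 to 1.05 and -1.21 to 0.31. Usp35 passed without unstressed 2 (-0.86, limma adjusted p = 0.038). Usp31, Usp43 and Usp44 lay under the tested level. Usp43 read 21.9 and 34.8 without stress and 278 and 285 after immobilization, so that the unstressed values lie within the Bacillus control range and the immobilized values just above it. In the fit without a filter its log2 difference was 2.76 ± 0.41 (limma adjusted p = 0.00798), a size that depends on the offset of 16. Usp31 read 192 and 279 against 598 and 366, and all 4 values of Usp44, 62 and 130.04 against 133 and 47.4, lie within the control range.

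Several probe sets named 22 of the 42 genes, and 19 genes had at least 2 probe sets above the tested level. Of the 26 tested probe sets other than the brightest, 7 were called higher and 1 lower, where 11.7% of all 18625 tested probe sets were called higher and 19.4% lower. For the 18 called genes, 11 further probe sets were tested, of which 5 were called the same way, 5 did not pass and 1, that of Usp19, was called the opposite way. The 5 in the same direction belong to Usp38, Usp24, Usp2, Usp13 and Usp46. Those of Usp8, Usp48, Usp32 (0.49), Usp40 (-0.18) and 1 of Usp46 did not pass. Of the tested probe sets of genes that did not pass, 2 were called, both of Usp9x. Among the rest, the second probe sets of Usp1, Usp4, Usp11 and Usp47 had log2 changes of -0.53, -0.47, -0.70 and -0.43. Further probe sets had -0.52 and -0.20 for Usp20, 0.01 and 0.48 for Usp34, and -0.71 and -0.53 for Usp42, and none of these passed. The other 12 probe sets lay under the tested level. Probe sets of a gene share its transcripts and are not replicates of the condition.

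**Figure D3:**
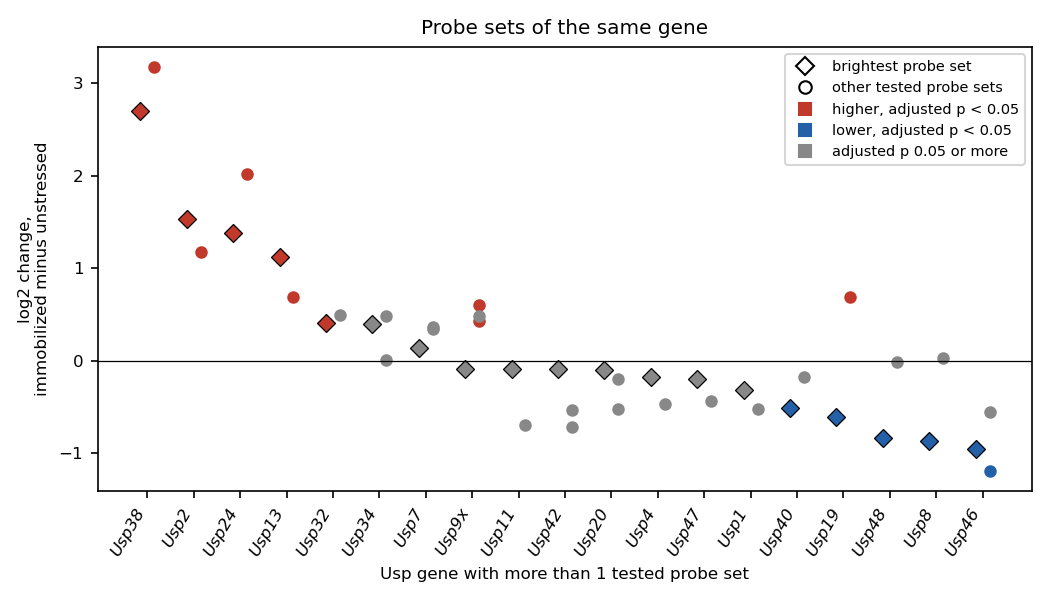
Log2 change (immobilized minus unstressed, y axis) of each tested probe set for the 19 Usp genes with more than 1, diamonds for the brightest and circles for the others. Red is called higher, blue called lower and grey not past the threshold, and the diamond and circle of Usp19 lie on opposite sides of 0, at -0.61 and 0.69.

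Deubiquitinases and relatives without a Usp number in their symbol included Cyld, Pan2 and Uspl1, with a domain like that of the Usp proteins. Among 29 tested, they gave 4 rises, 10 falls and 15 genes not past the threshold, with a median log2 change of -0.10. Of all tested genes 11.2% were called higher and 21.8% lower, and nothing particular to this list is read from its counts. Mindy1, which trims long chains, read 7259 and 8804 without stress and 2246 and 1778 after immobilization and fell by 1.99 ± 0.18 (limma adjusted p = 0.000633). Pan2, a subunit of an mRNA deadenylase, fell by 1.23, and Cyld, a brake on NF-kB signalling, by 1.03. Cops5, the catalytic subunit of the signalosome, fell by 0.86 and Stambp, an endosomal protease, by 0.83. Tnfaip3, the NF-kB feedback inhibitor A20, read 1459 and 1508 without stress and 2203 and 3588 after immobilization and rose by 0.92 ± 0.25 (limma adjusted p = 0.034). Without immobilized 1 the list had 2 rises and 3 falls, and without immobilized 2 it had 1 and 2. The calls on Cyld and Stambp were lost without immobilized 1 (limma adjusted p = 0.0555 and 0.0714) and without immobilized 2 (0.0588 and 0.106), and those on Cops5 and Tnfaip3 without immobilized 2 (0.0713 and 0.201). With no filter the adjusted p of Tnfaip3 in limma was 0.0511, and the list had 1 rise.

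Of 10 tested partners of Usp proteins, 3 rose and 7 did not pass, with a median of 0.03. The shares over all tested genes were 11.2% higher and 21.8% lower. Eny2, of the Usp22 module of the SAGA complex, rose by 0.93 ± 0.12 at its brightest probe set, and the mean of its probe sets had 0.085 (limma adjusted p = 0.736). Gmps, the partner of Usp7, rose by 0.90 ± 0.16, and Atxn7, of the same module as Eny2, by 0.59 ± 0.17. With immobilized 1 or immobilized 2 left out, the partners had 1 rise. The adjusted p in limma was then 0.0599 and 0.0851 for Gmps and 0.0852 and 0.251 for Atxn7. Atxn7 also lost its call with no filter (0.0519) and with no intensity trend (0.0546), and Gmps as the mean of its probe sets (0.0547). Of 6 listed genes for ubiquitin and its activating enzymes, 2 could be tested, both for such enzymes. Uba6 read 9209 and 10245 without stress and 3289 and 3394 after immobilization and fell by 1.53 ± 0.13 (limma adjusted p = 0.00049). Uba1 had -0.29 ± 0.12 and did not pass, while after quantile normalization both of the 2 genes were called lower.

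Of 22 tested genes for known Usp substrates, 8 rose, 3 fell and 11 did not pass, with a median of 0.06. Beside these counts, 11.2% of all tested genes were called higher and 21.8% lower, and nothing particular to the list is read from them. Egfr rose by 1.66 ± 0.36, Per1, a clock protein acted on by Usp2, by 1.58 ± 0.15, and the ubiquitin ligase gene Traf6 by 1.24 ± 0.26. Myc rose by 1.12 ± 0.17 and the clock repressor Cry1 by 1.03 ± 0.23. Traf3, a signalling adaptor, read 7333 and 6513 without stress and 2022 and 2666 after immobilization and fell by 1.57 ± 0.18 (limma adjusted p = 0.00144). Without immobilized 1 the list had 2 rises and 1 fall, and without immobilized 2 it had 3 and 1. Egfr, Traf6 and Cry1 lost their calls without immobilized 1 (limma adjusted p = 0.123, 0.0713 and 0.102) and without immobilized 2 (0.0818, 0.124 and 0.127), and Myc without immobilized 1 (0.0574). These are transcript values, and the arrays do not measure ubiquitin on any protein.

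**Figure D4:**
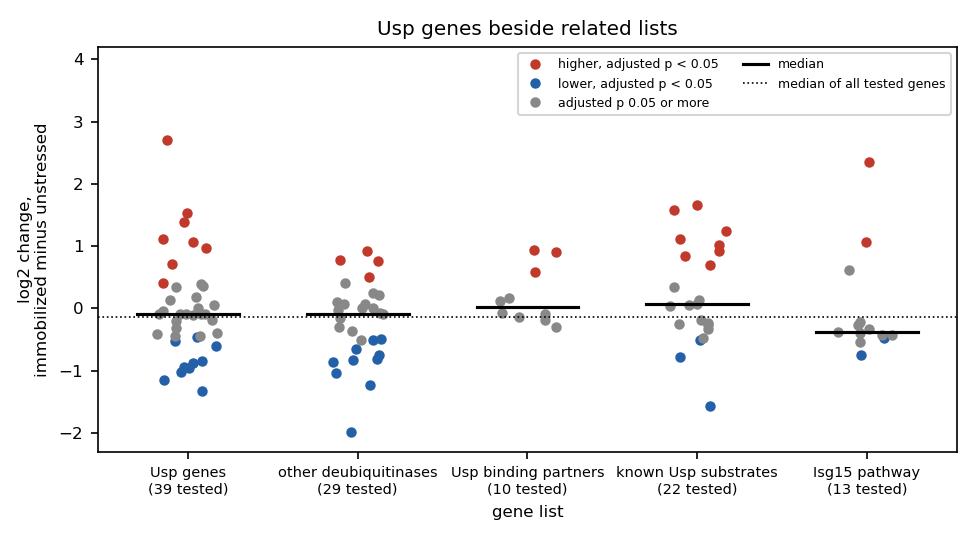
Log2 change (immobilized minus unstressed, y axis) of the tested genes of the Usp family and of 4 related lists (x axis), 1 point per gene, with a bar at each list's median and a dotted line at the median of all tested genes, -0.14. Red points are called higher, blue lower and grey not past the threshold, and every list has points on both sides of 0.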

How the data were processed

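The deposited table holds 1 linear intensity for each of 31099 probe sets on each of the 4 arrays. The authors' summary of probes into probe sets is a step not given in the sources used here. In the values the columns share 1 trimmed mean (about 2501, leaving out 2% at each end, spread 0.00572%), so that scaling was kept. The 57 control probe sets were left out. Genes were named from GEO's platform annotation, checked by Entrez identifier against RefSeq's GRCr8 gene table. All 80 Usp probe sets were found there and 0 symbols changed.

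Values were analysed as log2(intensity + 16), so fold changes of dim genes are understated. The 18625 probe sets whose mean level reached the 40th percentile went into limma 3.58.1 (lmFit, eBayes with an intensity trend) under R 4.3.3, two-sided, Benjamini-Hochberg adjusted, with a threshold of 0.05. SEs and 95% intervals come from this model, with 6.81 degrees of freedom. An exact permutation test of 2 against 2 cannot go below p = 0.333 and was not used. The fit was tested on simulated data. Replicate numbers follow accession order and pair nothing. The small number of arrays limits the precision. The members, role groups and gene lists were chosen with earlier results of these data known. Named are all Usp genes with a role or a call, and up to 6 called genes of each list. Protein sequences were not analysed here. Plots were drawn with matplotlib 3.10.9.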

Additional observations from a re-analysis of the deposited data

How the results depend on the processing

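Alternatives were quantile normalization, median centring, offsets of 1 and 64, the filter dropped or raised to the 60th percentile, eBayes with no trend or robust, averaging over the probe sets of a gene, adjustment over 1 probe set per gene, a threshold of 0.10 and leaving out each array. Of the 18 called Usp genes, 4 (Usp38, Usp24, Usp21 and Usp30) passed under all 15 and 11 under all that keep the 4 arrays. With 1 array left out, Usp genes called higher ranged from 2 to 8, Usp genes called lower from 3 to 9, the Usp median log2 change from -0.20 to -0.053, and other deubiquitinases called higher from 1 to 4 and lower from 2 to 10. The cause was not tested, beyond the fewer arrays. Averaging the probe sets of a gene gave 5 falls among Usp genes and 2 rises among other deubiquitinases, and no filter gave 1 such rise. Median centring gave a Usp median of 0.045, and moved the median of all tested probe sets from -0.12 to 0.02. Of called genes, the mean of probe sets turned Usp40 to 0.28 and Usp19 to 0.041, both not past the threshold. Both tested Usp40 probe sets had negative changes (-0.52 and -0.18), and its mean took in dim ones under the tested level. Other changes of sign were in genes that did not pass either way. After median centring the log2 changes were 0.11 for Usp25, 0.049 for Usp9x, 0.048 for Usp39, 0.046 for Usp11, 0.045 for Usp33, 0.045 for Usp42 and 0.039 for Usp20. Quantile normalization gave -0.087 for Usp14 and 0.037 for Usp42, and the mean of probe sets 0.36 for Usp9x. Leaving out an array gave ranges of -0.21 to 0.029 for Usp11, -0.31 to 0.11 for Usp20, -0.56 to 0.66 for Usp29, -0.018 to 0.033 for Usp14, -0.22 to 0.16 for Usp25, -0.22 to 0.033 for Usp39 and -0.30 to 0.11 for Usp42. No paired analysis was possible because the labels give no replicate numbers that tie arrays of the groups to each other. With 2 arrays per group, small changes were not detectable. Readings under 257 lay within the range of the 27 Bacillus controls and were not separated from background. That limit is the highest control reading, and no detection test was run for single probe sets.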
